A study of Caenorhabditis elegans with 10 samples.

Results

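The genes described here encode the myosin heavy chains, the paramyosin and the giant proteins of the *Caenorhabditis elegans* sarcomere. They are *unc-54*, *myo-3*, *myo-1*, *myo-2* and *unc-15* of the thick filament and the giant sarcomere genes *unc-22*, *ttn-1* and *unc-89*. They were chosen by name from the authors' deposited table of genes enriched with DLC-1, which lists 2732 genes, and all 8 are in it. DLC-1 is an LC8-type dynein light chain, a small protein that binds the motor and a wide range of other partners. RNA was sequenced from 5 FLAG immunoprecipitates and 5 inputs, all from worms of the 3xFLAG::DLC-1 genotype, synchronized and grown to the young adult stage. The immunoprecipitates were made with an antibody against FLAG from cleared extracts of whole worms, and the inputs are RNA of the same kind of extract with no antibody. A pull-down from worms without the tag was not analysed here, so no background of the pull-down itself is set beside these values. The comparison asks which RNAs come down with the tagged protein.

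In a muscle cell of the worm, thick filaments of myosin slide past thin filaments of actin. Body wall muscle builds its thick filaments from a major myosin heavy chain, UNC-54 (myosin B), and from MYO-3 (myosin A), which lies in the middle of the filament. Pharyngeal muscle, which pumps food, uses MYO-1 and MYO-2 (myosins D and C) in their place. Paramyosin, the product of *unc-15*, forms the core of the filament in both kinds of muscle. Twitchin (*unc-22*), the titin-related TTN-1 and the obscurin-related UNC-89 are very long chains of immunoglobulin and fibronectin domains with kinase domains. They sit along the A-band, in the I-band and at the M-line.

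Only genes called higher in the immunoprecipitates are in the table, so the log2 fold changes below describe the genes that they also helped to choose, and they carry no new test. The table holds 1 mean over the libraries for each gene and nothing for single samples, which leaves library depths unknown. Whether replicates 1 to 5 are separate cultures is not said in the labels, so the standard errors (SE) may measure technical spread alone. Input libraries were primed with oligo-dT and immunoprecipitate libraries were made without enrichment. Library preparation and immunoprecipitation therefore cannot be told apart for any gene named here. By the authors' rule of a fold above 2 and an adjusted p under 0.01, 13.4% of the 20328 genes tested were listed, and the reference gives 10.6% of its 19983 protein-coding genes as listed. Because listing was the rule, the count of 8 of 8 is read as no result.

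Both myosin heavy chain mRNAs of body wall muscle were far higher in the immunoprecipitates. The authors' deposited table gives *unc-54* a log2 fold change of 4.35 ± 0.26 (SE), which is 20.4-fold, with a 95% interval from 3.84 to 4.86 on the log2 scale (adjusted p = 6.66e-62). Its mean, 40413 normalized counts in the authors' deposited table, was the sixth highest of the 2116 listed protein-coding genes and the highest of the 8 sarcomere genes. The gene lies on chromosome I from 14855901 to 14863482 (WBcel235). *myo-3* stood at 3.43 ± 0.20 by the authors' deposited table (log2 scale ± SE), or 10.8-fold, with a mean of 2370 normalized counts (adjusted p = 1.39e-63). It lies on chromosome V from 12226816 to 12234343. The *unc-54* log2 fold change exceeded that of *myo-3* by 0.92, with an SE of 0.33 combined from the authors' SEs without their unknown covariance.

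The pharyngeal heavy chain mRNAs were higher in the immunoprecipitates too, and they differed from each other. In the authors' deposited table *myo-2* stood at 3.93 ± 0.22 (log2 fold change ± SE), or 15.3-fold, with a mean of 1236 normalized counts (adjusted p = 2.65e-67). It lies on chromosome X from 12468061 to 12475348. *myo-1* stood at 2.75 ± 0.24 by the authors' deposited table (log2 scale ± SE), or 6.75-fold, with a mean of 1336 normalized counts (adjusted p = 4.86e-30). It lies on chromosome I from 7258946 to 7267057. The means of the pharyngeal genes were close, while the *myo-1* log2 fold change was below that of *myo-2*, with a difference of -1.18 and a combined SE of 0.33.

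The folds of body wall and pharyngeal heavy chains overlapped. The log2 fold changes of the authors' deposited table averaged 3.89 over *unc-54* and *myo-3* and 3.34 over *myo-1* and *myo-2*. The body wall genes were thus higher by 0.54, with a combined SE of 0.23. That SE leaves out the spread between genes, a standard deviation (SD) of 0.65 over the body wall genes and 0.83 over the pharyngeal genes. The difference of 0.54 rests on which genes are paired. *unc-54* exceeded *myo-1* by 1.60 and *myo-2* by 0.42, and *myo-3* exceeded *myo-1* by 0.67, but *myo-3* minus *myo-2* was -0.51 (log2, combined SEs from 0.30 to 0.35). Sequences of the heavy chain genes were not compared here, and the handling of reads that map to several of them is not stated in any source used here.

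The paramyosin mRNA stood apart from the heavy chains that its protein packs with. The authors' deposited table gives *unc-15* a log2 fold change of 1.17 ± 0.16 (SE), or 2.24-fold with a 95% interval from 1.81 to 2.78, and it had a mean of 4743 normalized counts (adjusted p = 1.59e-12). This was the lowest fold of the 8 genes and close to the lower edge of the table, whose smallest log2 fold change is 1.00; genes just outside that edge have no value here. Its next neighbours among listed protein-coding genes were T05A12.3 and T11G6.5, with log2 fold changes of 1.17 and 1.16 in the authors' deposited table. *unc-15* lies on chromosome I from 7376604 to 7383197, 110 kb from *myo-1*. The *unc-15* interval takes in 2-fold, while the 95% intervals of the other 7 genes lie wholly above it, the lowest bound being 4.89-fold for *myo-1*. All but *unc-15* stood at 4-fold or more, where 7.21% of the genes tested stood; the same contrast chose the genes, so nothing is read from that count.

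The giant sarcomere mRNAs held the highest and the second highest log2 fold change of the 8. In the authors' deposited table *unc-22* stood at 5.03 ± 0.28 (log2 fold change ± SE), or 32.6-fold with a 95% interval from 22.3 to 47.7, with a mean of 3914 normalized counts (adjusted p = 2.43e-70). It was 125th by fold among the 2116 listed protein-coding genes, between *lin-7* and *pqn-15*, with log2 fold changes of 5.08 and 5.02 in the authors' deposited table. *ttn-1* stood at 4.70 ± 0.24 by the authors' deposited table (log2 scale ± SE), or 26.1-fold, with a mean of 4787 normalized counts (adjusted p = 1.44e-85). *unc-89*, whose protein organizes the M-line, stood at 3.72 ± 0.18 by the authors' deposited table (log2 scale ± SE), or 13.2-fold, with a mean of 2949 normalized counts (adjusted p = 6.00e-89). These genes lie on chromosome IV from 11972697 to 12011007, on chromosome V from 6120909 to 6202632 and on chromosome I from 4035702 to 4090885. The reference gives 9 proteins for *unc-22*, 14 for *ttn-1* and 16 for *unc-89*, against 1 for each heavy chain gene and 2 for *unc-15*. The table has a single value per gene, so isoforms were not separated.

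**Figure D1:**
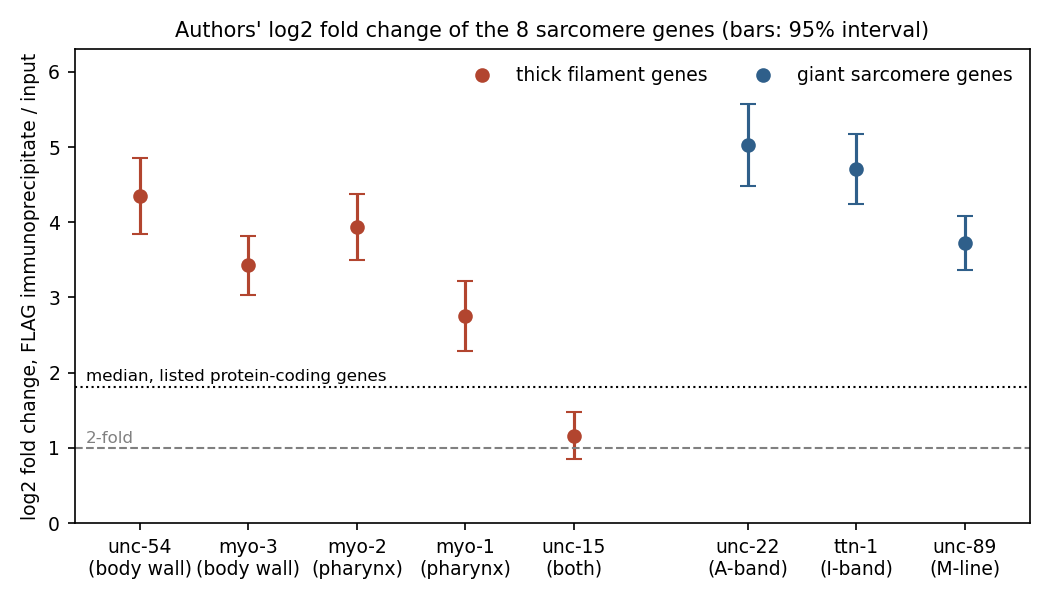
Log2 fold change of FLAG immunoprecipitate over input (y axis) for the thick filament genes at the left and the giant sarcomere genes at the right (x axis), as points with bars of 1.96 SE (the 95% interval) from the authors' deposited table. *unc-15*, at 1.17, is the lone gene of the 8 below the dotted line, which marks the median of 1.81 over listed protein-coding genes; the dashed line marks 2-fold.

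Thick filament genes were lower on average than giant sarcomere genes, with overlapping ranges. The log2 fold changes of the authors' deposited table ran from 1.17 to 4.35 over the 5 thick filament genes and from 3.72 to 5.03 over the 3 giant genes. Their means were 3.13 and 4.49, a difference of -1.36 with a combined SE of 0.17. That SE comes from the authors' SEs alone and leaves out the spread between genes. The SD between genes was 1.25 for the thick filament genes and 0.68 for the giant genes. Without *unc-15* the difference was -0.87. *unc-54* and *myo-2* were both above *unc-89*. Taken in order, *unc-22*, *ttn-1*, *unc-54*, *myo-2*, *unc-89* and *myo-3* each differed from the next by 0.21 to 0.42, less than 1.96 combined SEs. The steps down to *myo-1*, of 0.67, and from there to *unc-15*, of 1.59, were larger than 1.96 combined SEs. The median over the 8 genes was 3.83, against 1.81 over all listed protein-coding genes and 1.95 over the 531 of these whose mean reaches 1000 normalized counts, as it does for all 8 genes. The SEs of the 8 ran from 0.16 to 0.28 in the authors' deposited table, against a median of 0.18 for those 531 genes.

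The deposited mean and fold also give the level in each group, since both groups have 5 libraries. These implied levels assume that the fold is the ratio of the group means, and any shrinkage of the fold by the authors would make the immunoprecipitate level too low and the input level too high. For *unc-54* they came to 77050 normalized counts in the immunoprecipitates and 3776 in the inputs. For *unc-15* they came to 6560 in the immunoprecipitates and 2926 in the inputs. Per kilobase of gene span, introns included, the inputs held *unc-54* and *unc-15* at close levels of 498 and 444, while the immunoprecipitates held them at 10162 and 995. On this scale *unc-54* and *unc-15* thus differed mostly in the immunoprecipitates. The pharyngeal genes showed the reverse layout. Per kilobase of span the immunoprecipitates held *myo-1* at 287 and *myo-2* at 318, while the inputs held them at 42.5 and 20.8 (implied levels). *myo-3* stood between these and *unc-54*, at 576 in the immunoprecipitates and 53.6 in the inputs (implied level per kilobase of span). The giant genes had the lowest implied levels per kilobase of span. In the immunoprecipitates *unc-22* had 198, *ttn-1* 113 and *unc-89* 99.4, and in the inputs *unc-22* had 6.07, *ttn-1* 4.33 and *unc-89* 7.52. Their spans hold long introns, and reads from inputs primed at the poly(A) tail may not scale with length. Levels of genes that differ in span therefore remain rough. Genes of like span, such as *unc-54* and *unc-15*, may also differ in exon length, which was not at hand. Close levels per kilobase of span therefore need not be close levels of mRNA. The extracts hold all tissues, so neither these levels nor the folds can tell a smaller number of muscle cells from less RNA per muscle cell.

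**Figure D2:**
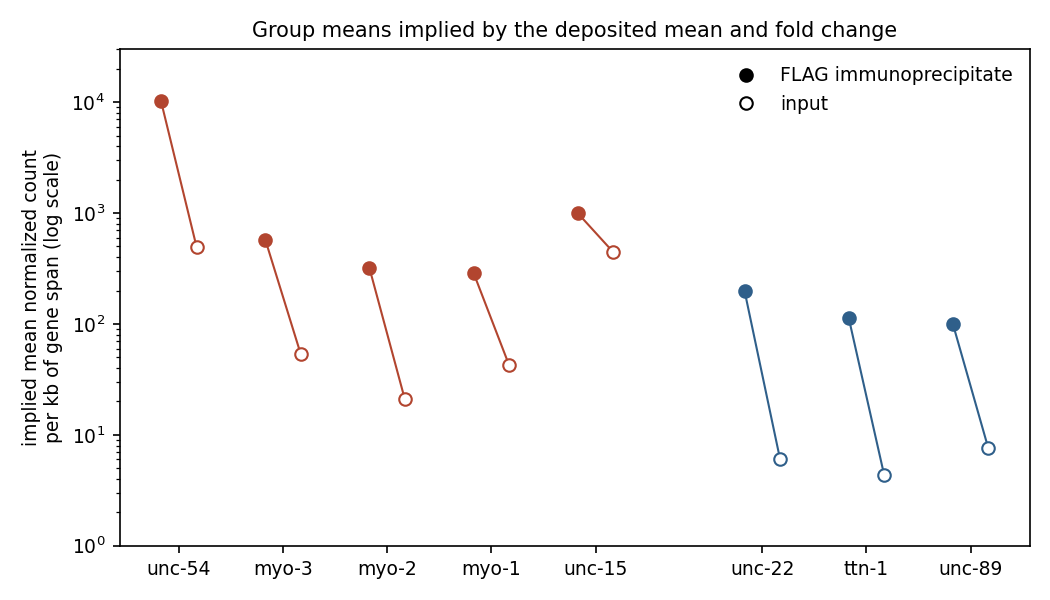
Mean normalized count per kilobase of gene span (y axis, log scale) in FLAG immunoprecipitates (filled) and inputs (open) for each gene (x axis), computed from the deposited mean and fold change. The line of *unc-15*, at 995 in the immunoprecipitates and 444 in the inputs, is the shortest drop, and those of the giant genes start and end lowest.

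The ranges of gene span of the thick filament and giant genes did not overlap, and longer genes were more often listed. The thick filament genes span 6594 to 8112 bp and the giant genes span 38311, 81724 and 55184 bp for *unc-22*, *ttn-1* and *unc-89*. Of the 589 protein-coding genes of the reference within the thick filament range, 31.1% were listed, and of the 22 within the giant range 81.8% were, so listing of a gene as long as a giant sarcomere gene was common. The size of the fold had no simple relation to span. Across the 2116 listed protein-coding genes Spearman's rho between span and log2 fold change was -0.02, and it was 0.18 over the 1602 whose mean reaches 100 normalized counts. Pearson's r between the logarithm of span and log2 fold change was -0.39 over all 2116, -0.32 over those 1602 and -0.15 without histone genes. The relation was not monotonic. The median log2 fold change of listed protein-coding genes was 4.18 below 2 kb, the class that holds the histone genes, then 1.57 from 2 to 5 kb, 1.79 from 5 to 10 kb, 1.94 from 10 to 20 kb, 2.10 from 20 to 40 kb and 2.39 above 40 kb. The class below 2 kb also had low counts, with a median mean of 47.1 normalized counts. In the longer classes that median ran from 362 to 1578. These are descriptions over genes of the same libraries. Among the 178 other listed genes in the thick filament range the median log2 fold change was 1.88 in the authors' deposited table. Of these 178, 4 stood above *unc-54*, 7 above *myo-2*, 14 above *myo-3*, 35 above *myo-1* and 162 above *unc-15*. Among the 15 other listed genes in the giant range the median was 2.29 in the authors' deposited table. Of these 15, 2 stood above *unc-22*, and 3 above both *ttn-1* and *unc-89*: *anc-1*, *dig-1* and, below *unc-22*, Y105E8A.25.

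**Figure D3:**
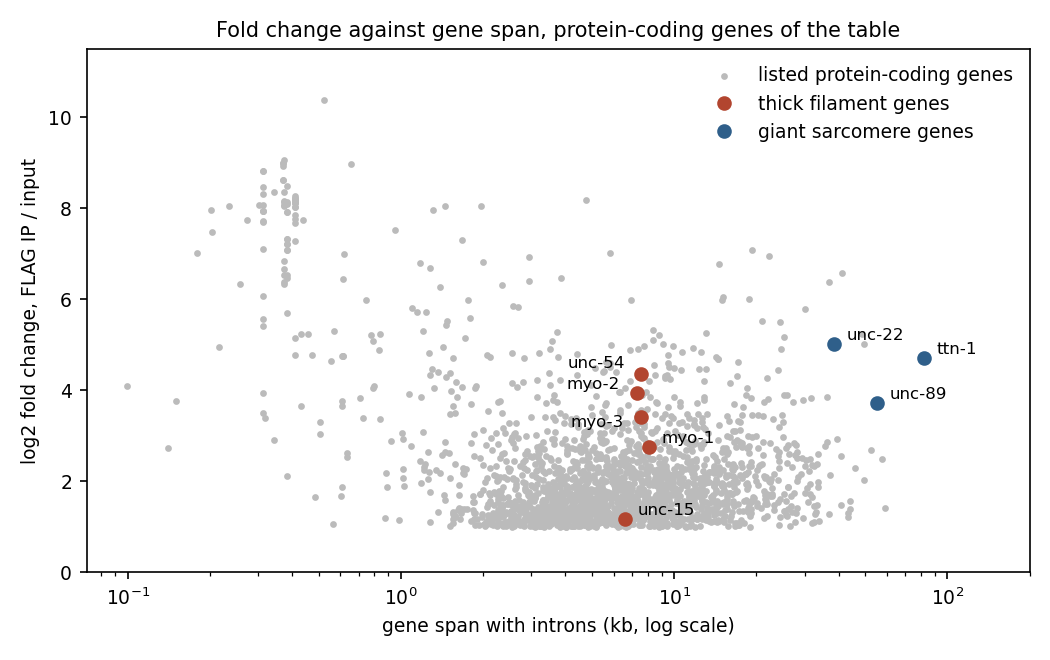
Log2 fold change of FLAG immunoprecipitate over input (y axis) against gene span with introns in kilobases (x axis, log scale) for listed protein-coding genes (grey), thick filament genes (red) and giant sarcomere genes (blue). The heavy chain genes lie in the upper part of the cloud at their span, *unc-15* at its lower edge, and the giant genes at the far right.

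The shares listed among other genes of the sarcomere are set beside the 13.4% of genes tested and beside the share of reference protein-coding genes of like span. None of the light chain genes *mlc-1*, *mlc-2* and *mlc-3*, whose products bind the neck of the myosin heads, was listed (0 of 3). All are shorter than 2 kb, a class of which 2.24% were listed, so their absence is near that share. Of 8 genes for thick filament assembly and the M-line 2 were listed, or 25%, where 48.6% of genes from 10 to 20 kb were (their median span is 12128 bp). They are *scpl-1*, a phosphatase gene whose product binds UNC-89, at 2.39 ± 0.41, and the M-line kinase gene *unc-82* at 1.47 ± 0.15 (the authors' deposited table, log2 scale ± SE). The myosin chaperone gene *unc-45* was not listed. The kettin gene *ketn-1*, a shorter relative of the titins in the I-band, stood at 3.90 ± 0.19 by the authors' deposited table (log2 scale ± SE), within the range of the giant genes.

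Thin filament genes were listed at 4 of 22, or 18.2%, against 13.4% of genes tested. In the authors' deposited table the tropomodulin-related genes *tmd-2* and *unc-94* stood at 1.69 ± 0.28 and 1.47 ± 0.19, and the actin genes *act-1* and *act-3* at 1.32 ± 0.23 and 1.24 ± 0.21 (log2 fold change ± SE). Actin genes are near-identical copies, so their single values are uncertain. The tropomyosin gene *lev-11* and the troponin genes of the list, *tnt-2*, *tnt-3*, *tnt-4*, *mup-2*, *tni-1*, *unc-27*, *tni-3*, *tni-4*, *tnc-2* and *pat-10*, were not listed. The median span is 1904 bp for all 22 thin filament genes and also for the unlisted ones. In the reference 2.24% of protein-coding genes below 2 kb and 10.2% of those from 2 to 5 kb were listed. The listed *act-1* and *act-3* are below 2 kb. The listed *tmd-2* and *unc-94* span 6097 and 10725 bp, in classes of which 30.7% and 48.6% were listed. The unlisted *lev-11*, *tnt-3* and *unc-87* are also in the class from 5 to 10 kb. No single class share therefore stands for the 18.2%. Unlisted genes may have been unchanged, lower, higher by less than 2-fold or too low to test.

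Genes that tie the sarcomere to the membrane were listed at 9 of 17, or 52.9%. Their median span is 6376 bp, and 30.7% of protein-coding genes from 5 to 10 kb were listed. The talin gene *tln-1* led them at 3.83 ± 0.33, followed by the perlecan gene *unc-52* at 2.15 ± 0.16, the alpha integrin gene *pat-2* at 2.08 ± 0.28 and the vinculin gene *deb-1* at 1.88 ± 0.24 (the authors' deposited table, log2 scale ± SE). The log2 fold changes of the other 5 lay between 1.20 and 1.84 by the authors' deposited table. Of 11 genes for excitation and calcium handling 5 were listed, or 45.5%, with a median span of 5239 bp for the 11 and the same 30.7% beside it. By the authors' deposited table these were the acetylcholine receptor gene *unc-63* at 3.58 ± 0.44, the calcium channel gene *egl-19* at 3.49 ± 0.29, the ryanodine receptor gene *unc-68* at 2.85 ± 0.14, the potassium channel gene *slo-1* at 1.74 ± 0.31 and the calcium pump gene *sca-1* at 1.64 ± 0.10 (log2 fold change ± SE). The mean of *unc-63* was low at 20.1 normalized counts, while the others ran from 80.1 for *slo-1* to 4370 for *sca-1*. Of 5 muscle transcription factor genes 1 was listed, or 20%: *pha-4*, of the pharynx, at 1.27 ± 0.31 (the authors' deposited table, log2 scale ± SE). Their median span is 3143 bp, and 10.2% of protein-coding genes from 2 to 5 kb were listed. The genes *hlh-1*, *unc-120*, *hnd-1* and *ceh-22* were not listed. Over these 7 lists of other muscle genes, 22 of 67 were listed, or 32.8%, against 13.4% of genes tested. The median log2 fold change was 3.83 for the 8 sarcomere genes and 1.72 for these 22. All 22 lay below *unc-22*, *ttn-1* and *unc-54*. The 22 have a median span of 8303 bp, in the class from 5 to 10 kb of which 30.7% were listed. The 45 that were not listed have one of 3246 bp, in the class from 2 to 5 kb of which 10.2% were listed.

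Myosin heavy chains outside muscle were listed as well, with 8 of 12, or 66.7%. The reference holds 11 of the 12, with a median span of 11346 bp, and 48.6% of protein-coding genes from 10 to 20 kb were listed. The non-muscle myosin II gene *nmy-1* stood at 3.48 ± 0.25, close to *myo-3*, and *nmy-2*, the myosin II of the embryonic cortex, at 2.17 ± 0.11 (the authors' deposited table, log2 scale ± SE). The unconventional myosin genes *hum-2* and *hum-6* stood at 2.58 ± 0.21 and 2.26 ± 0.29, and the other 4 between 1.23 and 1.79 (the authors' deposited table, log2 scale, ± SE where given). The median log2 fold change was 3.68 for the muscle heavy chains *unc-54*, *myo-3*, *myo-1* and *myo-2* and 1.98 for these 8. Large cytoskeletal and matrix genes outside the sarcomere were listed at 13 of 14, or 92.9%. Their median span is 20103 bp, with spans from 9641 bp for *spc-1* to 57568 bp for *vab-10*. Of protein-coding genes, 30.7% were listed from 5 to 10 kb and 48.6% from 10 to 20 kb. The share was 74.3% from 20 to 40 kb and 88.9% above that, so no single class share stands for this list. By the authors' deposited table *anc-1*, which anchors nuclei, stood at 6.59 ± 0.30, the matrix gene *dig-1* at 5.23 ± 0.18, the alpha spectrin gene *spc-1* at 4.24 ± 0.36 and the beta spectrin gene *unc-70* at 3.66 ± 0.31 (log2 fold change ± SE). Folds above that of *unc-22* were therefore also seen for genes outside the sarcomere, whose tissue of origin in these whole-worm extracts is not known. The log2 fold changes of the other 9 lay between 1.72 and 3.38 by the authors' deposited table.

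**Figure D4:**
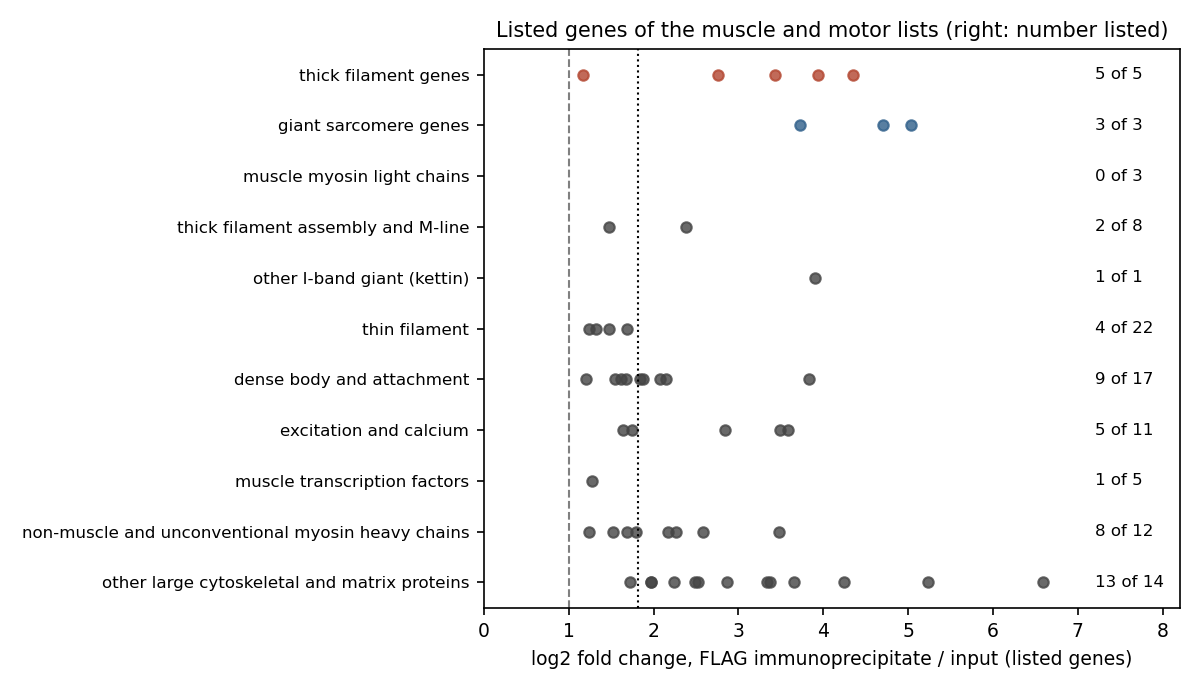
Log2 fold change of FLAG immunoprecipitate over input (x axis) of the listed genes of each list (y axis), 1 point per gene, with the number listed of the number in the list at the right; the dotted line is the median over listed protein-coding genes and the dashed line is 2-fold. No light chain gene is listed (all are below 2 kb), the thin filament genes lie below 1.81, and 2 of the large genes outside the sarcomere lie above *unc-22*.

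Markers of other tissues were listed too, and their shares are set beside the 13.4% of genes tested and the share of protein-coding genes of like span. The latter is 10.2% for the germline and intestinal markers (median spans of 3788 and 2310 bp, class of 2 to 5 kb). It is 30.7% for the neuronal markers (6535 bp, 5 to 10 kb) and 2.24% for the hypodermal markers (1190 bp, below 2 kb). Germline markers were listed at 6 of 10, or 60%, with log2 fold changes from 1.24 to 2.62 in the authors' deposited table. Neuronal markers were listed at 3 of 14, or 21.4%, from 1.94 to 2.91, intestinal markers at 2 of 12, or 16.7%, at 1.04 and 1.15, and hypodermal markers at 1 of 9, or 11.1%, at 2.45 (the authors' deposited table, log2 scale). None of these 12 listed markers reached the 8 genes' median of 3.83. Their part in the values of the sarcomere genes was not tested.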

How the data were processed

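The authors deposited 1 table of their own comparison. Per the file headers its columns are baseMean (a signal: the normalized count averaged over libraries), log2 fold change, the standard error, a test score, and the raw and adjusted p-value. Trim Galore, Bowtie2 2.3.0, STAR 2.5.2b-0, DESeq2 1.12.3 and the builds WBcel235 and ce11 are named without roles in the submitters' processing notes. For counting, strand and multiple mapping, no setting is given in the sources used here.

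All 2725 p-values above 0 equal the upper normal tail of the score to a relative tolerance of 1e-06, so the authors' test is one-sided. The 20328 genes tested were recovered from the smallest p above 0 and its Benjamini-Hochberg adjusted value, and 96.2% of implied ranks were whole to 0.0001. With no values per sample no model was refitted. Names were matched to the 46926 genes of WBcel235 from RefSeq by symbol (2493) or locus tag (167), and 72 stayed unmatched. Of the names in the gene lists, *hum-9* had no reference entry. Gene span replaced the planned coding length, and protein and promoter comparisons were not made.

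Intervals are 1.96 SE wide on each side. The test against 2-fold, z = (log2 fold change - 1)/SE, was tested on simulated data. Python 3.11.15, pandas 2.3.3 and scipy 1.17.1 were used. Genes named by rule are the 8, all listed genes of a muscle, myosin or large-protein list or its 4 highest where more than 6 are listed, neighbours of *unc-22* and *unc-15*, and the 10 longest listed genes. Unlisted genes and F12F3.5 were named after their values were seen. The members and lists were chosen with earlier results of these data known.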

Additional observations from a re-analysis of the deposited data

How the results depend on the processing

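All 8 genes kept a mean of at least 100 normalized counts, and 7 passed the test against 2-fold or a fold of at least 4, *unc-15* being the exception to both. The test against 2-fold was run on genes already chosen for folds above 2, so it describes them and supports nothing. With adjustment over all tested genes in place of listed ones, chosen after seeing the data, the same 7 passed. Of the 2732 genes listed, 1744 passed the test against 2-fold (1350 adjusted over all tested genes), 1465 stood at 4-fold or more and 1676 had a mean of at least 100. Thick filament minus giant genes, -1.36 (log2), was -1.28 with medians, -1.53 with inverse-variance weights and from -1.74 to -0.87 with 1 gene left out. By gene it was -1.67 without *unc-54*, -1.56 without *myo-2*, -0.87 without *unc-15*, -1.09 without *unc-22* and -1.74 without *unc-89*. Body wall minus pharyngeal heavy chains, 0.54, was 0.40 with weights. By single pairs, chosen after seeing the data, *unc-54* minus *myo-1* was 1.60, and *myo-3* minus *myo-2* turned to -0.51. Spearman's rho of fold with span, -0.02, was 0.18 with a mean of at least 100 and 0.071 without histone genes. The cause of these shifts was not tested. Abundance per coding length and fold against protein length were not run, since no protein lengths were at hand. No paired analysis was possible because the table has no values per sample, and no replicate could be left out for the same reason. Depth limits are unknown.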

Other observations

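The 10 listed protein-coding genes with the longest span include 2 of the sarcomere genes, *ttn-1* as the longest and *unc-89*. The others differ widely in log2 fold change in the authors' deposited table. The cadherin gene *hmr-1*, the next longest at 58910 bp, stood at 1.41 ± 0.13, the spectraplakin gene *vab-10* at 2.48 ± 0.21 and the calcium channel gene *unc-2* at 2.70 ± 0.29 (the authors' deposited table, log2 scale ± SE). The afadin gene *afd-1* stood at 2.02 ± 0.17, *gcn-1* at 2.29 ± 0.16 and *gap-2*, a gene for a Ras GTPase-activating protein, at 1.40 ± 0.13, while Y105E8A.25 stood at 5.02 ± 0.60 (the authors' deposited table, log2 scale ± SE). *dig-1*, already described, completes these 10. A long span thus went with log2 fold changes from 1.40 to 5.23 among them.

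Other annotated genes lie within or across the spans of 5 of the 8 genes: 22 for *unc-22*, 7 for *ttn-1*, 5 for *unc-89*, 3 for *myo-3* and 1 for *myo-1*. Of these 38 genes 4 are protein-coding. Of all 38, 1 is in the authors' deposited table, the non-coding RNA F12F3.5 inside *ttn-1*, at a log2 fold change of 5.95 with a mean of 2.43 normalized counts. It lies on chromosome V from 6141111 to 6141326 (WBcel235). Whether reads of *ttn-1* and F12F3.5 were separated by strand is not stated in any source used here.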
